A study of Mus musculus with 5 samples.

Results

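Expression of uncoupling protein genes, and of genes that act on how much pyruvate mitochondria admit and oxidise, was compared between heart grafts with and without prolonged cold ischemia. The 10 genes were the uncoupling proteins Ucp2 and Ucp3, the pyruvate dehydrogenase kinases Pdk1, Pdk2, Pdk3 and Pdk4, the pyruvate dehydrogenase phosphatases Pdp1 and Pdp2, and the mitochondrial pyruvate carrier subunits Mpc1 and Mpc2. Their probe sets were found by symbol, current or older, in the array annotation, and the set of genes was drawn up with earlier results of these data known. A probe set with a single symbol was found for 8 of the 10, among 19938 genes with such a probe set. Neither Ucp2 nor Mpc2 is listed that way in the annotation used, and both were not analysed here.

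The grafts were hearts of C57BL/6 mice, 8 weeks old, implanted into the abdomen of C57BL/6 recipients, so that donor and recipient were syngeneic. In the I/R group (grafts 2553, 2555 and 2557, n = 3) the donor heart had been kept in University of Wisconsin solution at 4 °C for 18 h before implantation. In the non-I/R group (grafts 2554 and 2556, n = 2) it was implanted without that storage, although 1 protocol field of the labels gives the storage for every sample. Both groups therefore share explantation, surgery and reperfusion with recipient blood, and differ in the cold storage. The labels give harvest at 24 h after transplantation and the text of the study gives day 2, so the time of harvest is uncertain. A Mouse Gene 1.0 ST array was hybridised for each graft, and signals are log2 values made by robust multi-array averaging (RMA), on which a difference of 1 is a 2-fold change.

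Uncoupling proteins are carriers of the mitochondrial inner membrane. Ucp3 is found in heart, skeletal muscle and brown fat, where it rises with the supply of fatty acids. Pyruvate crosses the same membrane through a carrier built of Mpc1 and Mpc2 and is then oxidised by the pyruvate dehydrogenase complex. The kinases switch that complex off by phosphorylation and the phosphatases switch it back on, so that their balance sets the share of glucose and fatty acids burned. In the heart, Pdk4 and Pdk2 are known as the main kinases, and Pdk4 rises in fasting and in diabetes.

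As a check of the tissue, the 12 cardiomyocyte markers had mean log2 signals of 12.26 to 12.99 in the 5 grafts, against array medians of 6.577 to 6.652. All 12 had lower mean signals in the I/R grafts, with a median difference of -0.51 (range -0.82 to -0.38). Mean signals of these markers were 12.34, 12.26 and 12.59 in I/R grafts 2553, 2555 and 2557, and 12.99 and 12.89 in non-I/R grafts 2554 and 2556. Of 10 neutrophil markers, 9 had higher means in the I/R grafts, with a median difference of 0.99. Their mean signal was 9.35, 10.12 and 9.70 in the I/R grafts and 8.61 and 9.0 in the non-I/R grafts, so that the groups did not overlap. Mmp9, Csf3r and Cxcr2, a granule protease and receptors of neutrophils, were higher by 1.45, 1.36 and 1.15. Part of the atrial markers, named here after their values were seen, separated the grafts along another line. The signal of Myl7, the atrial light chain, was 10.67 in non-I/R 2554 and 11.08 in I/R 2555. It was 5.52 in non-I/R 2556, 6.72 in I/R 2553 and 8.56 in I/R 2557. Myl4 and Sln were likewise highest in 2554 and 2555. Bmp10 was 7.29 in 2554 but 4.79 in 2555, and Nppa was lower in every I/R graft than in both non-I/R grafts. The differences of the measured genes are therefore also given without grafts 2554 and 2555, as values only, since that fit has 1 non-I/R graft and takes its spread from 2 I/R grafts. Fewer cells of a type and less RNA per cell cannot be told apart in such tissue samples. The labels name grafts and not the animals they came from, and the p-values can speak only of the variation among these samples, which may be technical in part.

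Across the 8 measured genes, 7 had lower mean signals in the I/R grafts and Pdk3 was the exception. Their median difference was -0.60, beside -0.008 over all 21789 probe sets tested, of which 54.4% were lower. By limma, no gene passed an adjusted p of 0.05, and no probe set of the array did (0% of 21789). At an unadjusted p under 0.05, 4 of the 8 were lower (Ucp3, Pdk2, Pdp1 and Mpc1), beside 7.35% of all probe sets, and none was higher, beside 7.64%. The study's 2-fold criterion, which also asks for an unadjusted p under 0.05, was met by Ucp3 and Pdk2, 2 of 8 beside 1.0% of all probe sets, and by no gene in the other direction, beside 0.496%. In 6 of 8 genes all I/R grafts were lower than both controls, beside 16.2% of all probe sets, and in none were they all higher than both, beside 15.8%. The number of arrays limits the precision, since 3 grafts against 2 can be grouped in 10 ways and an exact two-sided permutation test cannot go below p = 0.1. Without graft 2554, which leaves 1 non-I/R graft whose spread is assumed to be that of the others, 1 gene (Ucp3) was lower at an unadjusted p under 0.05 and at the 2-fold criterion. Without graft 2555, Ucp3 alone met the 2-fold criterion.

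**Figure D1:**
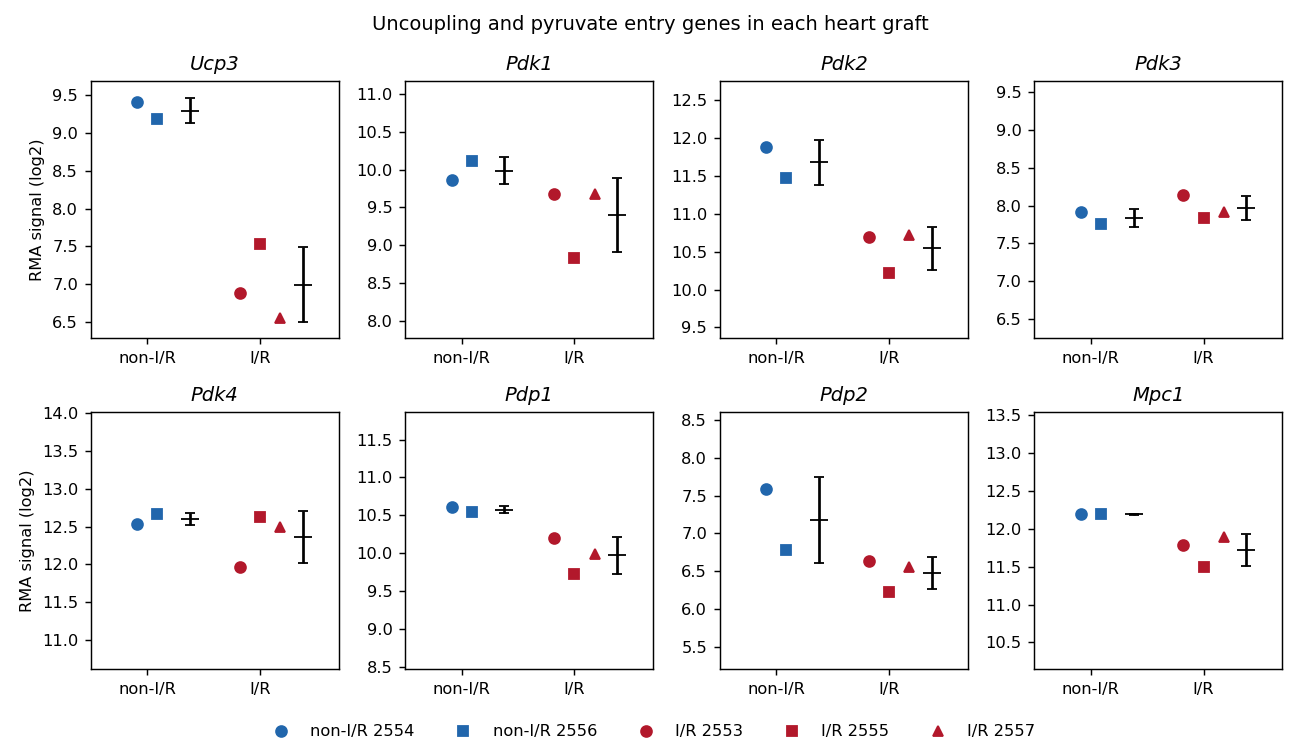
Log2 RMA signal of the 8 measured genes in each heart graft, non-I/R in blue and I/R in red, with 1 panel for each gene and the same span of signal in every panel. Crossbars give the mean and whiskers the SD of 3 I/R and 2 non-I/R grafts. The groups are farthest apart for Ucp3, 1.66 between the nearest grafts, and overlap for Pdk3 and Pdk4.

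Ucp3, the uncoupling protein of muscle mitochondria, had the largest difference of the measured genes. Its log2 signal was 6.89, 7.53 and 6.56 in I/R grafts 2553, 2555 and 2557, and 9.41 and 9.18 in non-I/R grafts 2554 and 2556. All I/R grafts were thus lower than either control, and the nearest of them were 1.66 apart. The means were 6.99 ± 0.493 (SD, n = 3) and 9.30 ± 0.157 (SD, n = 2). The difference was -2.30 (SE 0.334, 95% interval -3.25 to -1.36), a signal 4.93-fold lower (2.56 to 9.49), with an adjusted p of 0.282 by limma and an unadjusted p of 0.00273. It ranked 11 from the lowest of the 21789 probe sets. With any 1 graft left out it ranged from -2.57 to -2.09, with unadjusted p between 0.0011 and 0.029, and without both 2554 and 2555 it was -2.46. Ucp3 and Pdk2 both stand in gene lists that the study chose on these samples, so their direction here is not independent evidence.

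The other carriers linked to proton leak differed less. Ucp1, which makes heat in brown fat, had signals of 5.22 to 5.30 in all grafts, below the array medians, with a difference of -0.03. Slc25a27 and Slc25a14, uncoupling protein relatives best known from brain, had differences of -0.09 and less than 0.01 in size. The signal of Slc25a14 was 6.17 to 6.18, also below the array medians, where a small difference says little. Slc25a5, the second adenine nucleotide translocase, had differences of -0.09 to -0.05 over its 3 probe sets. Slc25a4, the main adenine nucleotide translocase of heart muscle, was the 1 of the 5 at an unadjusted p under 0.05. Its signals were 12.45, 12.21 and 12.70 in I/R grafts 2553, 2555 and 2557, below 13.20 and 12.96 in non-I/R grafts 2554 and 2556, and the difference was -0.63 (SE 0.183). The median of the 5 carriers was -0.05. Without probe sets with tied values it was -0.34, over fewer carriers, Slc25a4 among them.

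The promoter of Ucp3 is shown with those of 2 kinases, Pdk2, whose groups were apart, and Pdk4, whose groups overlapped. The windows are from RefSeq on GRCm38.p6 and run from 250 bases before to 50 after the start of transcription, on the gene's strand: Ucp3 at chr7:100472741-100473040 (plus), Pdk2 at chr11:95041322-95041621 (minus, the first of its 2 windows) and Pdk4 at chr6:5496229-5496528 (minus). They were searched on both strands for AGGTCA, the half-site of nuclear receptors such as PPAR-alpha, for TCAAGGTCA, the element of estrogen-related receptors, which contains AGGTCA, for ACGTG, the core of the hypoxia response element, and for TGTTTAC, a forkhead core. Capitals mark every match.
Ucp3: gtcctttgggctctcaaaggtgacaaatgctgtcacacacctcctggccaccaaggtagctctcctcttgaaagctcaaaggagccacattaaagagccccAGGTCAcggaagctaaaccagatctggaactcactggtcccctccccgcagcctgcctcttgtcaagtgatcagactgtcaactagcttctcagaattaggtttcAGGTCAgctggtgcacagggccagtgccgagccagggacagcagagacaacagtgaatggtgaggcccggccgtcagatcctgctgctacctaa
Pdk2: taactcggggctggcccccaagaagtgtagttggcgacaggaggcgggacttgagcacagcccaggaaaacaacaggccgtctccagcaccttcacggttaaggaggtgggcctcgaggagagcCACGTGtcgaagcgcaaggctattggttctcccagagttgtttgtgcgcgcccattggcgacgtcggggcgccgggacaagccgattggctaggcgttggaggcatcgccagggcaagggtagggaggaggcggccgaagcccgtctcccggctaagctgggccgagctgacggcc
Pdk4: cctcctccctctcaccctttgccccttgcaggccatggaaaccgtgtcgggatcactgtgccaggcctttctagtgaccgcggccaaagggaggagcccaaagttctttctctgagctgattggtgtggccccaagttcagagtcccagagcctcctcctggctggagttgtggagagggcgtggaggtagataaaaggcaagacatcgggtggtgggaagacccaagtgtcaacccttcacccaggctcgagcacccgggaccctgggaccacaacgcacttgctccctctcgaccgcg
The Ucp3 window holds AGGTCA at bases -149 and -44 from the start. The Pdk2 window holds the palindrome CACGTG, in which ACGTG is read on both strands, at bases -126 and -125. The Pdk4 window holds none of the 4 motifs. Among the windows not printed, those of Pdk3, whose groups overlapped, and of Pdp2 also hold ACGTG, the latter as CACGTG, and the second window of Mpc1 holds AGGTCA. The second window of Pdk2, the first of Mpc1 and those of Pdk1, Ucp2 and Mpc2 hold none. No window was available for Pdp1. Of 32851 promoter windows, 16.3% hold AGGTCA, 0.423% TCAAGGTCA, 19.6% ACGTG and 3.65% TGTTTAC. The matches describe letters in these windows and no binding was measured.

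Among the kinases, Pdk2 was lower in the I/R grafts while Pdk3 and Pdk4 overlapped between the groups. Pdk2, the kinase present in most tissues, had signals of 10.70, 10.22 and 10.72 in I/R grafts 2553, 2555 and 2557, and 11.89 and 11.47 in non-I/R grafts 2554 and 2556. Every I/R graft was below both non-I/R grafts, the nearest by 0.754. The means were 10.55 ± 0.279 (SD, n = 3) and 11.68 ± 0.296 (SD, n = 2), and the difference was -1.14 (SE 0.231, 95% interval -1.79 to -0.48), a 2.20-fold lower signal with an adjusted p of 0.282 and an unadjusted p of 0.00895 by limma. Without graft 2554 the difference was -0.93 with an unadjusted p of 0.0569. Without both 2554 and 2555 it was -0.76.

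Pdk4, the kinase induced by fasting and by PPAR-alpha, had signals of 11.97, 12.63 and 12.49 in I/R grafts 2553, 2555 and 2557, and 12.54 and 12.66 in non-I/R grafts 2554 and 2556. A single I/R graft, 2553, was low and graft 2555 lay between the non-I/R grafts. The difference was -0.24 (SE 0.235, 95% interval -0.90 to 0.42, unadjusted p = 0.367 by limma), an interval that does not reach a 2-fold change in either direction. Without graft 2553 it was -0.04, and without both 2554 and 2555 -0.43.

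Pdk1, a kinase known as a target of the hypoxia-inducible factor, had signals of 9.68, 8.83 and 9.68 in I/R grafts 2553, 2555 and 2557, and 9.86 and 10.11 in non-I/R grafts 2554 and 2556. All I/R grafts were below both non-I/R grafts, but the nearest by only 0.187, and the difference of -0.59 (SE 0.335, 95% interval -1.54 to 0.35, unadjusted p = 0.155 by limma) was -0.31 without graft 2555, the lowest. Without both 2554 and 2555 it was -0.43, and no p is given since the remaining I/R grafts had the same signal.

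Pdk3, a kinase best known from testis and brain, had signals of 8.14, 7.84 and 7.92 in I/R grafts 2553, 2555 and 2557, and 7.92 and 7.75 in non-I/R grafts 2554 and 2556. The groups overlapped, and the difference was 0.13 (SE 0.118, 95% interval -0.20 to 0.47, unadjusted p = 0.328 by limma). It was the single kinase with a higher mean in the I/R grafts, and the difference was 0.28 without both 2554 and 2555.

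**Figure D2:**
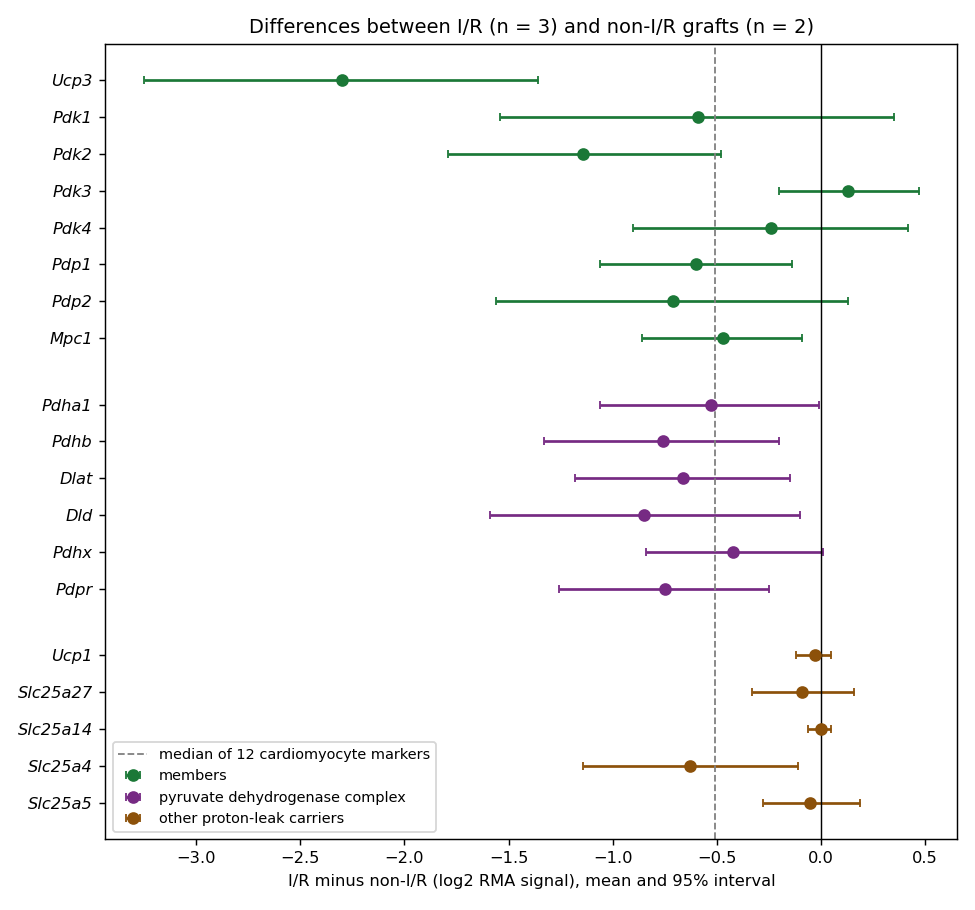
Mean log2 RMA signal of the I/R grafts (n = 3) minus that of the non-I/R grafts (n = 2), for the 8 measured genes, the 6 genes of the pyruvate dehydrogenase complex and 5 other carriers linked to proton leak. Points are differences of means, bars their 95% intervals by limma, and the dashed line is the median of 12 cardiomyocyte markers, -0.51. The interval of Ucp3 alone lies wholly beyond -1.

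Because kinases were measured on the same arrays, each was also set against Pdk2 within a graft, and the 2 phosphatases against each other. Only the change of such a difference between groups can be read, since probe sets differ in brightness. Pdk3 minus Pdk2 was -2.56, -2.38 and -2.80 in I/R grafts 2553, 2555 and 2557, and -3.97 and -3.72 in non-I/R grafts 2554 and 2556. The I/R grafts lay above both non-I/R grafts, with a shift of 1.27 (exact permutation p = 0.1, the smallest possible, 0.4 after Benjamini-Hochberg adjustment over the 4 pairs compared). Pdk4 minus Pdk2 was 1.27, 2.4 and 1.77 in the I/R grafts and 0.65 and 1.19 in the non-I/R grafts, which were also apart, although by less than the spread within the I/R group. Its shift was 0.90 (exact permutation p = 0.2, adjusted 0.4), 0.60 without graft 2555 and 0.33 without both 2554 and 2555. Pdk1 minus Pdk2 had a shift of 0.54 with overlapping groups (exact permutation p = 0.3, adjusted 0.4), which was 0.21 without graft 2554, 0.87 without graft 2556 and 0.33 without both 2554 and 2555. Relative to Pdk2, the signals of the other 3 kinases were thus higher on average in the I/R grafts. Pdk2 had the lowest difference of the kinases, -1.14, and was made the reference with earlier results of these data known. The positive sign of all 3 shifts therefore follows from that choice and adds no evidence beyond the lower Pdk2 signal. No pair was past the threshold and none was able to pass it in this design.

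**Figure D3:**
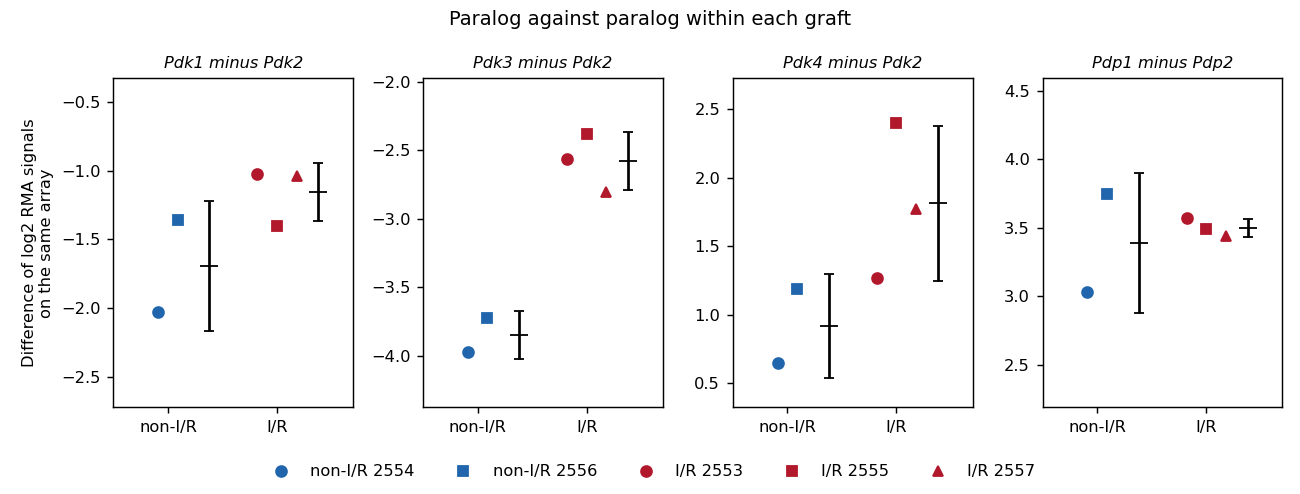
Difference between the log2 RMA signals of 2 related genes on the same array, for 3 pairs of kinases and the pair of phosphatases, with 1 point for each graft, non-I/R in blue and I/R in red. Crossbars give means and whiskers SDs of 3 I/R and 2 non-I/R grafts. Pdk3 minus Pdk2 and Pdk4 minus Pdk2 are higher in all I/R grafts, and the other 2 pairs overlap.

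Both phosphatases were on average lower after cold storage. Pdp1, the calcium-stimulated phosphatase of muscle, had signals of 10.20, 9.72 and 9.99 in I/R grafts 2553, 2555 and 2557, and 10.61 and 10.54 in non-I/R grafts 2554 and 2556. The groups were apart by 0.336, and the difference was -0.60 (SE 0.163, 95% interval -1.06 to -0.14), with an unadjusted p of 0.0224 and an adjusted p of 0.29 by limma. Leaving out 2554, 2556 or 2557 raised the unadjusted p to between 0.0689 and 0.117, with differences of -0.64 to -0.57. Without both 2554 and 2555 the difference was -0.44. Pdp2, the phosphatase known to respond to insulin, had a weak signal, in the I/R grafts near or below the array medians of 6.577 to 6.652. Its signals were 6.63, 6.23 and 6.55 in I/R grafts 2553, 2555 and 2557, and 7.58 and 6.78 in non-I/R grafts 2554 and 2556. The I/R grafts were below both, the nearest by 0.151, but the SD of the non-I/R grafts was 0.562, and the difference of -0.71 (SE 0.299, 95% interval -1.56 to 0.13) had an unadjusted p of 0.0782 by limma. It was -0.32 without graft 2554, -1.11 without graft 2556 and -0.20 without both 2554 and 2555, so that its size rested on the grafts kept. Pdp1 minus Pdp2 was 3.57, 3.49 and 3.44 in the I/R grafts and 3.03 and 3.75 in the non-I/R grafts, and overlapped (exact permutation p = 0.8), with a shift of 0.11 that was -0.25 without graft 2554.

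Mpc1, a subunit of the carrier that brings pyruvate into mitochondria, had signals of 11.79, 11.49 and 11.89 in I/R grafts 2553, 2555 and 2557, and 12.20 and 12.19 in non-I/R grafts 2554 and 2556. The groups were apart by 0.307, and the difference was -0.47 (SE 0.137, 95% interval -0.86 to -0.09), with an unadjusted p of 0.0279 and an adjusted p of 0.297 by limma. By the methods' t-test the unadjusted p was 0.0539, and without graft 2553, 2554 or 2556 it was between 0.0685 and 0.123. Without both 2554 and 2555 the difference was -0.35. The probe set carries a number next to those of genes that lie around a processed copy of Mpc1, so that signal of the gene and of the copy may not be told apart.

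**Figure D4:**
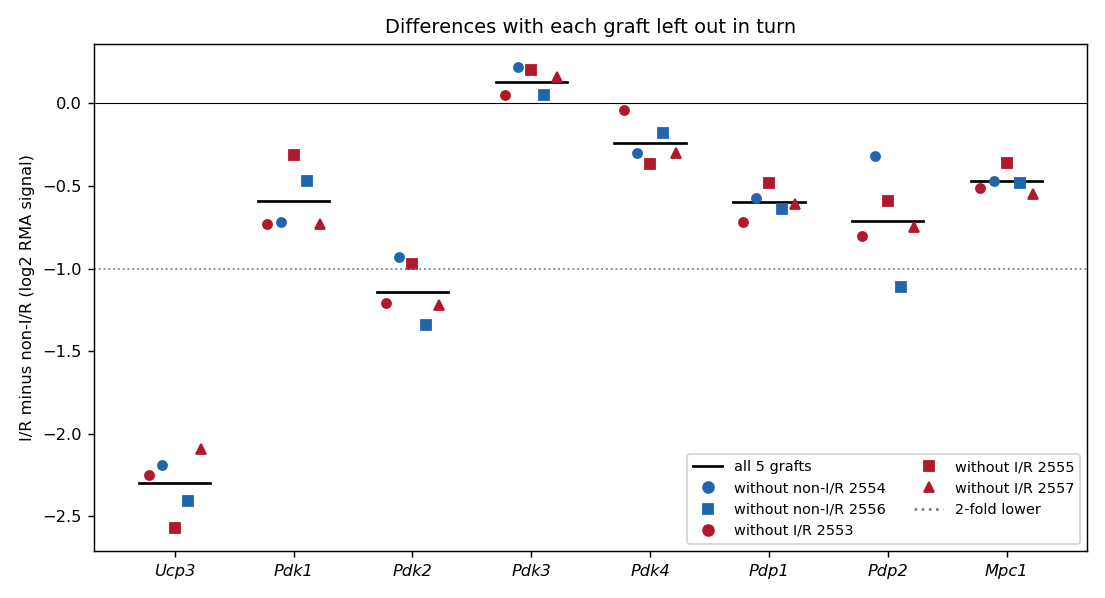
Difference in log2 RMA signal between I/R and non-I/R grafts for each measured gene with all 5 grafts (black bars) and with each graft left out in turn (points). The dotted line marks a 2-fold lower signal. Ucp3 stays between -2.57 and -2.09, and Pdp2 ranges from -1.11 to -0.32.

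The complex on which the kinases and phosphatases act also had lower signals. All 6 genes of the pyruvate dehydrogenase complex and its regulator had lower means in the I/R grafts, with a median of -0.71 and none at 2-fold. In each of them every I/R graft was below both non-I/R grafts, beside 16.2% of all probe sets. At an unadjusted p under 0.05, 5 were lower, beside 7.35% of all probe sets. The exception at that p was Pdhx, the binding protein of the complex, with -0.42 (unadjusted p = 0.0532 by limma). The 12 cardiomyocyte markers were much alike, with a median of -0.51. All 12 had lower means, 11 had every I/R graft below both non-I/R grafts, and 10 were lower at that p. The complex was not set against those markers. Pdha1 and Pdhb, the subunits of the decarboxylase that the kinases phosphorylate, had differences of -0.53 (SE 0.186) and -0.76 (SE 0.199). Signals of Pdhb were 9.70, 9.11 and 9.45 in I/R grafts 2553, 2555 and 2557, and 10.19 and 10.18 in non-I/R grafts 2554 and 2556. Dlat, the acetyltransferase, had -0.66 (SE 0.181) and Dld, the dihydrolipoamide dehydrogenase shared with other complexes, -0.85 (SE 0.263). Pdpr, the regulatory subunit of the phosphatase, had signals of 9.60, 9.15 and 9.51 in I/R grafts 2553, 2555 and 2557, and 10.30 and 10.05 in non-I/R grafts 2554 and 2556, a difference of -0.75 (SE 0.178). Graft 2555 was the lowest in all 6.

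Pyruvate can also leave the cell or be made from lactate. Of 8 genes of lactate and monocarboxylate handling, 5 had lower and 3 higher means, and the median was -0.23. Slc16a1, the widely expressed monocarboxylate transporter, and Ldhb, the heart subunit of lactate dehydrogenase, had differences of -0.73 (SE 0.208) and -0.65 (SE 0.224), both at an unadjusted p under 0.05 by limma. A second Ldhb probe set gave -0.57 with an unadjusted p of 0.0585. Emb, embigin, a partner protein of monocarboxylate transporters, was the single gene of the list at 2-fold, with signals of 9.39, 9.26 and 9.16 in I/R grafts 2553, 2555 and 2557, and 8.14 and 8.32 in non-I/R grafts 2554 and 2556. Its difference was 1.04 (SE 0.0968, unadjusted p = 0.000539 and adjusted p = 0.282 by limma). Of 7 other enzymes that use or make pyruvate, none passed an unadjusted p of 0.05, and the smallest p values were those of pyruvate carboxylase, Pcx, with -0.58, and of the malic enzyme Me3, with -0.67.

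Ucp3 and Pdk4 are both known targets of PPAR-alpha, the fatty acid receptor, and its other targets were described with them. Of 15 measured of 19 listed, 13 had lower means in the I/R grafts, with a median of -0.58. At an unadjusted p under 0.05, 10 were lower, beside 7.35% of all probe sets, and none was higher, beside 7.64%. The 12 cardiomyocyte markers were much alike, with 10 lower at that p and a median of -0.51. The targets were not set against those markers. The 2 targets with higher means, named after their values were seen, were Angptl4 and Plin2. Angptl4 had 0.78 (SE 0.439), with every I/R graft above both non-I/R grafts, and Plin2 had 0.36 (SE 0.27) with overlapping groups. The smallest p values of the targets were those of Plin5, which coats lipid droplets (-1.06, SE 0.0598, the 1 gene at 2-fold), of the fatty acid binding protein Fabp3 (-0.90, SE 0.106) and of the fatty acid transporter Cd36 (-0.71, SE 0.0917). Beside these, Ucp3 had a larger difference, -2.30, and Pdk4 a smaller one, -0.24, whose 95% interval holds 0. Of 11 regulators, 7 had lower and 4 higher means. At an unadjusted p under 0.05, 5 were lower, beside 7.35% of all probe sets, and none was higher, beside 7.64%. Ppargc1a, the coactivator of PPAR and estrogen-related receptors, had signals of 9.39, 8.48 and 8.94 in I/R grafts 2553, 2555 and 2557, and 10.63 and 10.35 in non-I/R grafts 2554 and 2556, a difference of -1.55 (SE 0.316), and -1.73 by a second probe set. Its relative Ppargc1b had -0.75 (SE 0.15) and the estrogen-related receptor Esrrg -0.94 (SE 0.226). Ppara, which encodes PPAR-alpha and is named for its role after its value was seen, had -0.07 (SE 0.0917) with overlapping groups.

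Pdk1 belongs with the targets of hypoxia, and 16 others were measured. They were evenly divided, 8 with lower and 8 with higher means, with a median of 0.03. At an unadjusted p under 0.05, 2 were lower, beside 7.35% of all probe sets, and 2 were higher, beside 7.64%. The glucose transporter Slc2a1 and the hypoxia marker Ankrd37 were higher by 0.69 (SE 0.168) and 0.32 (SE 0.0992), and the collagen hydroxylase P4ha2 had -0.52 (SE 0.145). Bnip3, the other gene lower at that p, had -0.88 (SE 0.29). A second Bnip3 probe set gave -0.60 with an unadjusted p of 0.0898 by limma.

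Since cardiomyocyte markers were lower in the same grafts, the signal of each gene was set against their mean on the same array, a measure added after the values had been seen. The mean of the 12 markers differed by -0.54 between the groups. Relative to it, Ucp3 was at -0.75, -0.03 and -1.33 in I/R grafts 2553, 2555 and 2557, and at 1.11 and 1.0 in non-I/R grafts 2554 and 2556. The I/R grafts stayed below, with a difference of -1.76 (exact permutation p = 0.1, the smallest possible). Pdk2 was also below in every I/R graft, with -0.59 (exact permutation p = 0.1), and Pdk3 above, with 0.68 (exact permutation p = 0.1). The other 5 overlapped, with differences of -0.05 for Pdk1, 0.30 for Pdk4, -0.06 for Pdp1, -0.17 for Pdp2 and 0.07 for Mpc1. On this scale the sign of Pdk4 and of Mpc1 was turned, and 2 genes were below and 1 above in all I/R grafts. A marker mean that was lower in the I/R grafts raises every difference by the same amount. The share of all probe sets apart on this scale was not computed, so these counts have no background beside them. The part of cardiomyocyte content in the differences was not tested further.

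**Figure D5:**
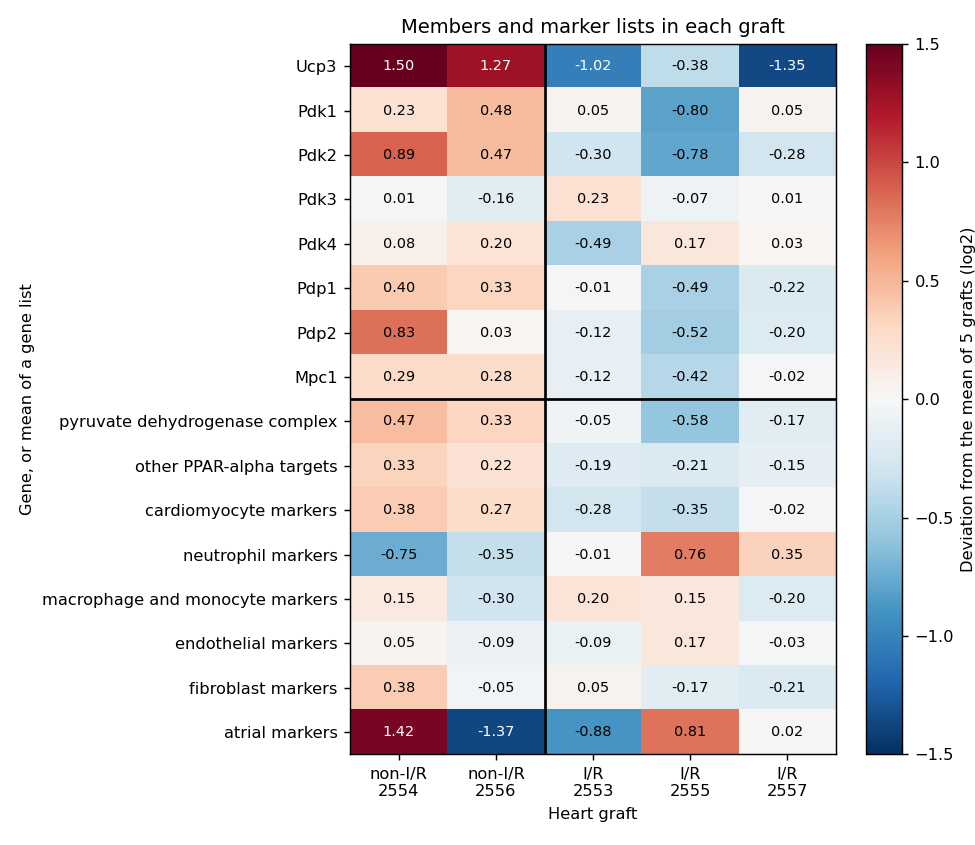
Deviation of each graft from the mean of the 5 grafts, in log2 units, for the 8 measured genes and for the means of companion and marker lists. Columns are grafts, non-I/R left and I/R right of the vertical line, red is above and blue below the mean. I/R 2555 is the lowest column for Pdk1, Pdk2, Pdp1, Pdp2 and Mpc1 and the highest for neutrophil markers, but not the lowest for Ucp3.

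The genes did not order the I/R grafts alike. Graft 2555, with the highest neutrophil markers (10.12) and the lowest cardiomyocyte markers (12.26), was the lowest of all grafts for Pdk1, Pdk2, Pdp1, Pdp2 and Mpc1. For Ucp3 and Pdk4 it was the highest of the I/R grafts, and the lowest were 2557 for Ucp3 and 2553 for Pdk4. The part of infiltrating cells and of the sampled region in these differences was not tested.

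By the root mean square difference of centred log2 signals over the 5 grafts, the genes most like Ucp3 were Gpr22, an orphan receptor, at 0.395, Smim5, a small membrane protein, at 0.418 and Kcnj3, a potassium channel subunit, at 0.438. Their differences between groups were -2.70, -2.12 and -2.10, which follow in part from how these genes were picked. In all of them graft 2553 was the highest of the I/R grafts, whereas for Ucp3 it was graft 2555. The genes most like Pdk2 were Mpi, mannose phosphate isomerase, at 0.0352, Abcc9, a subunit of the ATP-sensitive potassium channel, at 0.0494 and Fitm1, a protein of lipid storage, at 0.0595. Their differences were -1.11, -1.05 and -1.2. The measure is in log2 units and depends on the size of a gene's differences, so values for Ucp3 and Pdk2 cannot be compared directly.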

How the data were processed

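Total RNA of 5 heart grafts was labelled and hybridised to Mouse Gene 1.0 ST arrays, 1 for each graft. The authors deposited log2 values for 35556 probe sets, made with Partek and RMA as the submitters' processing notes name them, without versions. RMA gives the probe intensities of the arrays 1 common distribution before they are summarised, so a shift of most genes together would be largely lost. The array medians of the summarised values still ran from 6.577 to 6.652. The genome build is not given in the sources used here, and coordinates of probe sets are not printed. A single symbol was listed for 21789 probe sets, several for 1621 and none for 12146, and 21698 gene IDs (99.58%) were matched to a RefSeq table. Values were tied between arrays in 11715 probe sets, and 757 had 1 value on all arrays, for reasons not tested.

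The log2 values were tested as deposited, 3 I/R against 2 non-I/R grafts, with limma 3.58.1 (lmFit and eBayes, prior df 0.824) in R 4.3.3, with p-values adjusted by Benjamini-Hochberg over all 21789. The study's methods name ANOVA, which for 2 groups is the methods' t-test, run as an alternative. Pairs of genes, and genes set against the cardiomyocyte markers, were compared by an exact two-sided permutation test. Ucp3 minus Ucp2 and Mpc1 minus Mpc2 could not be run. Gene lists used the brightest probe set of a gene, and 145 of 157 listed genes in 17 lists were measured. The genes, lists, tests and alternatives were chosen with earlier results of these data known. Named were all the genes of interest and all genes of the pyruvate dehydrogenase and proton-leak lists. In other lists, they were the genes at the 2-fold criterion or among the 3 smallest p values (the atrial markers, Ppara, Angptl4, Plin2 and Bnip3 apart). For Ucp3 and Pdk2 the 3 genes most alike were also named. The limma fit was tested on simulated data, and the other steps were not. Alternatives were other eBayes settings, array weights, other normalizations, filters, and leaving out grafts. Promoter windows came from RefSeq, with a window for 9 of the 10 genes. Tables were handled in pandas 2.3.3 under Python 3.11.15, plots were drawn with matplotlib 3.10.9, and statmod 1.5.0 served limma. The miRNA arrays and other assays of the study were not analysed here.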

Additional observations from a re-analysis of the deposited data

How the results depend on the processing

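The unadjusted p of Ucp3 stayed under 0.05 in every alternative fitted across the array that kept both non-I/R grafts. Its difference ranged from -2.57 to -1.76 over all alternatives. The number of genes lower at that p was 4, and 1 to 4 with a graft left out, with 1 without non-I/R 2554. At the 2-fold criterion the number was 2, and 1 to 3 with a graft left out. It was 1 without 2555. Relative to the cardiomyocyte markers, Pdk4 had 0.30 and Mpc1 0.07, both of turned sign. Pdp1 minus Pdp2 was -0.25 without 2554 and without 2554 and 2555 together, in place of 0.11, and ranged from -0.25 to 0.47 with a graft left out. The median of the hypoxia targets was -0.10 without tied probe sets, which leaves fewer genes, and -0.05 to 0.05 with a graft left out. Pdp2 passed an unadjusted p of 0.05 by limma with arrays centred on their median, with quantile normalization, without tied probe sets and without 2556, with differences of -0.72, -0.72, -0.71 and -1.11. The median of the other PPAR-alpha targets was -0.37 and that of the pyruvate dehydrogenase complex -0.46 without 2554 and 2555 together. Without tied probe sets, which leaves fewer genes in these lists, the medians of the regulators and of the proton-leak carriers were -0.48 and -0.34. The median of lactate handling was -0.08 without 2554 and 2555 together, and that of the other pyruvate enzymes -0.03 without 2554. Pdk3 minus Pdk2 kept its sign in the alternatives run, from 1.05 to 1.39. The causes were not tested. No paired analysis was possible because the labels give no replicate numbers, and the numbering used to leave out grafts followed only their order.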

Other observations

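Of 6 measured fat cell markers, the lipid droplet protein Cidea, which is also made in brown fat, was the 1 at the 2-fold criterion. Its log2 signal was 7.80, 7.36 and 7.71 in I/R grafts 2553, 2555 and 2557, below 8.81 and 8.68 in non-I/R grafts 2554 and 2556, a difference of -1.12 (SE 0.16, unadjusted p = 0.00259 and adjusted p = 0.282 by limma). The median of the 6 markers was -0.04, and Ucp1, the uncoupling protein of brown fat, had signals of 5.22 to 5.30 in the same grafts.

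Among the remaining cell type lists, 10 macrophage and monocyte markers had a median difference of 0.03, 10 lymphocyte markers -0.08, 8 endothelial markers 0.12, 7 fibroblast markers -0.27, 5 atrial markers -0.16 and the 2 measured red cell markers 0.05. The mean signal of the fat cell markers was 5.94 to 5.97 in the I/R grafts and 6.13 to 6.18 in the non-I/R grafts, a gap set by Cidea, since the other 5 markers differed by -0.14 to 0.13, and the mean signals of the other 6 lists overlapped between the groups.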
